A study of Homo sapiens with 41 samples.

Results

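Distal open regions without HDAC6 are stretches of accessible chromatin in untreated MDA-MB-231 cells, a human triple-negative breast cancer line. They lie away from the ends of protein-coding genes and carry no peak in 3 HDAC6 lists of untreated cells. An untreated HDAC6 ChIP list made with the Novus antibody was not used in the choice and had a peak at 2.64% of them. They were chosen in 3 steps from the authors' peak lists. The 3 ATAC-seq lists of untreated cells were merged into 91305 regions on chromosomes 1 to 22 and X, of which 25139 held a peak in all 3 lists. Of these open regions, 13461 lay more than 5 kb from both ends of every protein-coding gene in GRCh38, and 8594 of those had no peak in either HDAC6 CUT&Tag list of untreated cells nor in the untreated HDAC6 ChIP list made with the CST antibody. The other 4867 distal regions had a peak in at least 1 of these 3 HDAC6 lists and are called HDAC6-carrying regions here. The remaining 11678 open regions lay within 5 kb of a gene end. The regions without HDAC6 were thus 34.2% of the open regions and 63.8% of the distal ones.

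The study profiled cells given the HDAC6 inhibitor Nexturastat A (NextA) at 5 µM for 2 days, untreated parental cells (Ctrl), cells with a hairpin against HDAC6 (shHDAC6) and cells with a control hairpin (shCtrl). All are the same line, and libraries were made from 100000 cells each. ATAC-seq, which cuts accessible DNA with a transposase, gave 3 lists for each of the 4 groups. ChIP of RNA polymerase II (PolII, an antibody to the C-terminal domain of its largest subunit) gave 2 lists for each group, and ChIP with an antibody to acetylated histone H3 (pan-acetyl, acetylated at K9, K14, K18, K23 and K27) gave 2 NextA and 2 Ctrl lists. HDAC6 ChIP gave 2 lists each of NextA (CST and Novus antibodies), shHDAC6 (both Novus) and Ctrl (CST and Novus), and HDAC6 CUT&Tag, which cuts around a bound antibody, gave 2 Ctrl lists with the Novus antibody. The knockdown comes as a single shHDAC6 group with no second hairpin named in the sample labels, and ATAC and PolII of hairpin cells have no inhibitor arm.

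Regions open far from gene ends are mostly enhancers, insulators or starts of noncoding transcripts. In cells of mesenchymal type many enhancers are opened by AP-1, a dimer of FOS and JUN family proteins that binds a short palindrome. HDAC6 is a lysine deacetylase known mainly for its cytoplasmic work on tubulin, cortactin and misfolded protein, and histone H3 acetylation marks active enhancers and promoters. The label of the line was checked at gene ends: VIM, CD44, EGFR, AXL and FN1, genes of mesenchymal or basal breast cancer cells, had an ATAC peak in 3 of 3 and a PolII peak in 2 of 2 Ctrl lists. Of 13 genes of luminal, epithelial junction, leukocyte and neuron type, the oestrogen receptor gene ESR1 and the leukocyte gene PTPRC had none in either assay, and the other 11 had at least 1 peak. ERBB2, SPI1 and SYT1 had peaks in 3 of 3 ATAC and 2 of 2 PolII Ctrl lists, FOXA1 in 2 and 2, GATA3 and EPCAM in 2 and 1, PGR and SNAP25 in 1 and 1, CD3E in 3 and 0, RBFOX3 in 1 and 0 and CDH1 in 0 and 1. Peaks at gene ends thus marked genes of the labelled type without being limited to them.

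A peak list records calls. Read depth is not given, so a region without a peak is one where none was called, and no share below can be read as an amount of signal. Lists held 25878 to 79666 peaks for ATAC, 19519 to 31198 for PolII, 1418 to 61186 for pan-acetyl, 235 to 63833 for HDAC6 ChIP, and, for CUT&Tag, 14458 and 22481. The first ATAC lists of NextA and of Ctrl were called on q with complete numbering, and the other 10 on p, with a lowest −log10 p of 5.00 in each. The share of numbered peaks still present was 21.2% and 21.3% in NextA lists 2 and 3, 3.92% and 3.90% in Ctrl lists 2 and 3, 6.77% to 9.71% in shHDAC6 lists and 8.06% to 8.80% in shCtrl lists. At that p floor, for −log10 p of 5.0 to 5.2, the median fold was 4.16 and 4.11 in NextA lists 2 and 3, 4.11 in both Ctrl lists, 4.04 to 4.14 in shHDAC6 lists and 4.04 in the 3 shCtrl lists. Peak names in 2 lists carry a prefix that belongs to another group: a shCtrl-like one in the second CUT&Tag Ctrl list and in the Novus NextA list. Both were kept under their labels.

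The sequences at some of these regions can be read, because 275 of the 8594 (3.20%) covered at least 150 bases of a RefSeq start window, the 300 bases around a transcript start (GRCh38.p14). Of these windows 196 belong to a long noncoding RNA and 79 to a protein-coding gene. The windows below are shown because the regions without HDAC6 fell into unlike patterns across the ATAC lists (described further on) and their start windows differed in the motifs they held. The first 4 belong to the regions of highest ATAC Ctrl rank, among those at a noncoding start, with a peak in all 6 parental ATAC lists (NextA and Ctrl) and in no hairpin list (shHDAC6 and shCtrl). Capitals mark the AP-1 motif TGANTCA on either strand and the GC box GGGCGG or its reverse complement.
LOC105374745 (chr5:42950639-42950938, plus strand): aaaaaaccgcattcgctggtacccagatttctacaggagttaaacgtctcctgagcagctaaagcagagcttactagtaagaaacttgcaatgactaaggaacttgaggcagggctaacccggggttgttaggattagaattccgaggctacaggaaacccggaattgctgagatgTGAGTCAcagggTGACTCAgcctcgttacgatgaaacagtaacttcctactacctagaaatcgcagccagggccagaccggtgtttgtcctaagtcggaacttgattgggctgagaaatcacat
LOC105373461 (chr2:19711443-19711742, plus strand): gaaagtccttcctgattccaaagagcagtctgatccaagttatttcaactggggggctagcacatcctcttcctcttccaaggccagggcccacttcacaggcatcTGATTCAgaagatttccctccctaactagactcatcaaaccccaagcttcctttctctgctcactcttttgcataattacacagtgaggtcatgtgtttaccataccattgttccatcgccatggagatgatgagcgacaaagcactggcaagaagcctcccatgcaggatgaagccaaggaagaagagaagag
LOC107985502 (chr21:42040409-42040708, plus strand): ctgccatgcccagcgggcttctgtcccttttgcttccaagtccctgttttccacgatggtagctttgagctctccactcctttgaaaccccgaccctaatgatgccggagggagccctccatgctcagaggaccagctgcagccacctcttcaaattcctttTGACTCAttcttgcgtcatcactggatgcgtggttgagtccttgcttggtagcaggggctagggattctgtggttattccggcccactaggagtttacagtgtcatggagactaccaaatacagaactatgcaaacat
LOC107986160 (chr3:183285806-183286105, plus strand): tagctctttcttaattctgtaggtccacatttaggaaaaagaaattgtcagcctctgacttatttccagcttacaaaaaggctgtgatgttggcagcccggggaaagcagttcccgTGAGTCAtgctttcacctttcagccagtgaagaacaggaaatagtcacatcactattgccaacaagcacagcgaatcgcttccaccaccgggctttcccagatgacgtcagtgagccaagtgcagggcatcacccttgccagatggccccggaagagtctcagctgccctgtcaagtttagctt
The next 4 were chosen in the same way among regions with a peak in all 12 ATAC lists.
LINC02695 (chr11:86193449-86193748, minus strand): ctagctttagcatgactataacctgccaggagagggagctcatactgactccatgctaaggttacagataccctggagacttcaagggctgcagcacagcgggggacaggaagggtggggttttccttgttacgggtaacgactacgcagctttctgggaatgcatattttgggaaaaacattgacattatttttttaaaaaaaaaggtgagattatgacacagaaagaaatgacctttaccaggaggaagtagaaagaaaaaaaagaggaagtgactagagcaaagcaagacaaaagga
LINC02321 (chr14:90828125-90828424, minus strand): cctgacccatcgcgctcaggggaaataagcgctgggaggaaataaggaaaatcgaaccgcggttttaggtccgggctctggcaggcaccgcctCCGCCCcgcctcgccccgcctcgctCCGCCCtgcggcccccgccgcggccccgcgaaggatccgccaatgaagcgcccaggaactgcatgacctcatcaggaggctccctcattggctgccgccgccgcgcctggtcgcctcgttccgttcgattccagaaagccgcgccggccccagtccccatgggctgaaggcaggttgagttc
LOC107987280 (chr20:30580054-30580353, minus strand): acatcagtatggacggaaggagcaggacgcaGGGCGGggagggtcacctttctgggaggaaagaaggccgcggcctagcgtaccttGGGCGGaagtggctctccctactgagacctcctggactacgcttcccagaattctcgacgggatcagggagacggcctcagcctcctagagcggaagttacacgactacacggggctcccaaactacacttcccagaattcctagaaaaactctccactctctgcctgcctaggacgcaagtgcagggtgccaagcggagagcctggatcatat
LOC105369875 (chr12:84508857-84509156, minus strand): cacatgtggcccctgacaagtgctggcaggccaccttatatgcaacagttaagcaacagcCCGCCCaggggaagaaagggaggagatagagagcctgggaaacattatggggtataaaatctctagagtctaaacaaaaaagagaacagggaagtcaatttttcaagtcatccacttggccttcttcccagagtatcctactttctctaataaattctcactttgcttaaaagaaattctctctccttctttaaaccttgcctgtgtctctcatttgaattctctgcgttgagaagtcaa
All 4 parental-only windows held TGANTCA and none held the GC box, while none of the 4 windows open in all 12 lists held TGANTCA and 3 held at least 1 GC box.

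Over all windows, TGANTCA was present in 37.5% of the 275 at regions without HDAC6 (exact binomial 95% interval 31.7 to 43.5%), in 11.0% of the 856 at HDAC6-carrying regions (8.97 to 13.3%), in 4.76% of the 7335 near gene ends and in 7.69% of all 34789 start windows of this length. Within the regions without HDAC6 the motif stood in 56.7% of 90 parental-only windows (45.8 to 67.1%) and in 11.6% of 43 windows open in all 12 lists (3.89 to 25.1%). The GC box, bound by SP and KLF factors, ran the other way, in 17.8% of the parental-only windows and 46.5% of those open in all 12 lists. It stood in 24.4% of windows without HDAC6, 61.8% of those at HDAC6-carrying regions, 73.9% of those near gene ends and 44.9% of all windows. Base composition moved with this: windows held a mean of 6.67 CpG in the parental-only regions, 15.0 in those open in all 12 lists, 8.61 in all regions without HDAC6, 22.3 in HDAC6-carrying regions and 16.8 over all windows. The part of base composition in the motif shares was not tested. Of the other motifs searched on both strands, the TEAD motif GGAATG stood in 22.2% of windows without HDAC6, 12.7% of those at HDAC6-carrying regions and 14.1% of all windows, and CCAAT in 40.4%, 37.0% and 34.6%. The ETS motif CCGGAAG stood in 7.27%, 13.2% and 10.2%, and the RUNX motif TGTGGTT in 6.18%, 3.86% and 4.28%. These windows lie at transcript starts and are a small share of the regions, and a match is a run of letters, not a bound site.

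**Figure D1:**
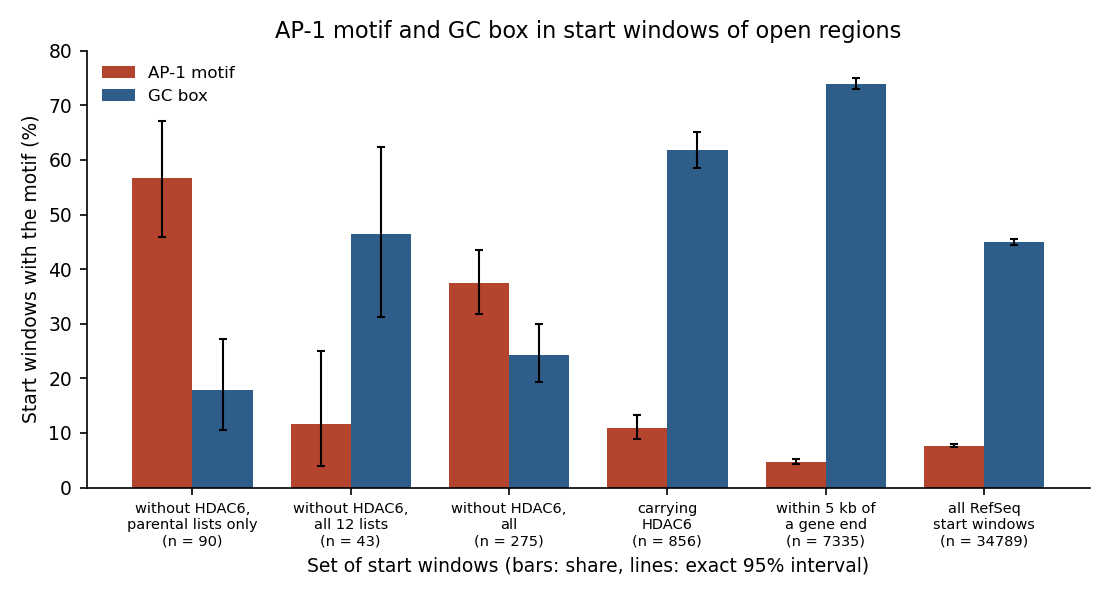
Share of start windows (y axis, %) that hold the AP-1 motif (red) or the GC box (blue) in 6 sets of windows, with exact 95% binomial intervals as lines. The AP-1 motif stood in 56.7% of windows at regions without HDAC6 that were open in parental lists only, against 11.6% of those open in all 12 lists.

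Regions without HDAC6 were narrower and farther from gene ends than HDAC6-carrying ones. Their width was 828 bp at the median (quartiles 683 and 995 bp, range 273 to 2424 bp), against 1016 bp, and the nearest gene end was 35.0 kb away at the median, against 24.7 kb. They were spread over 4803 protein-coding genes by position (the gene that holds the region, or else the nearest). Of the 8594, 4290 (49.9%) lay inside a protein-coding gene, against 47.3% of HDAC6-carrying regions. They touched a start window far less often, 3.20% against 17.6%. Neighbouring regions without HDAC6 lay within 10 kb of each other in 564 cases. Of distal open regions the share without HDAC6 was lowest on chromosome 19 (49.3%) and highest on chromosome 18 (71.8%). miRNA hairpins were rare among them: 5 regions covered one, at MIR4276, MIR583, MIR6132, MIR6860 and MIR759, against 12 HDAC6-carrying regions.

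Their strength in Ctrl cells depended on which list was read. Strength is given here as the percentile of the authors' fold over background among all peaks of the same list. In ATAC Ctrl list 1 regions without HDAC6 had a median percentile of 74.1, against 67.7 for HDAC6-carrying regions. In lists 2 and 3 the order was the opposite, with 54.2 against 70.4 and 56.3 against 72.4. The same turn was seen in the NextA lists that held the regions, with 78.0 against 72.2 in list 1, 69.2 against 77.4 in list 2 and 69.0 against 76.3 in list 3. Lists 1 differ from lists 2 and 3 in the measure used for calling and in peak width (median 404 and 407 bp in lists 1, 573 to 705 bp in lists 2 and 3), and the part of either in the turn was not tested.

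The strongest 10 regions without HDAC6 were picked by mean ATAC Ctrl percentile, so their high ATAC peaks follow from the choice. No PolII list had a peak at 6 of these 10, beside 67.5% of all regions without HDAC6. The highest mean Ctrl percentile, 99.3, belonged to chr9:73869031-73869722, 628 kb from RORB, which encodes an orphan nuclear receptor. Its fold over background was 17.0, 11.5 and 13.4 in the NextA lists, against 18.3, 13.8 and 12.8 in Ctrl, and no PolII or pan-acetyl list had a peak there. In hairpin cells it was called in lists 2 and 3 of shHDAC6 (5.28 and 4.83) and lists 1 and 3 of shCtrl (5.11 and 4.75). NextA and Ctrl values thus overlapped, and every hairpin value stood below them.
A region inside ANO6, a phospholipid scramblase gene (chr12:45415306-45415972), had folds of 15.0, 18.8 and 18.8 in NextA, 16.5, 16.0 and 12.6 in Ctrl, 5.00, 6.49 and 7.41 in shHDAC6 and 7.32, 7.83 and 7.32 in shCtrl. It was called in all 12 lists, again with lower folds in hairpin cells and again without PolII. Read depth is not given, and these regions were picked for a high Ctrl rank. The part of either in the lower hairpin folds was not tested. The other pattern is shown by a region inside CNTRL, which encodes the centrosomal protein centriolin (chr9:121121357-121122141). Its ATAC fold was 16.3, 14.7 and 11.4 in NextA, 16.4, 14.4 and 12.5 in Ctrl, 10.6, 12.4 and 10.4 in shHDAC6 and 12.3, 11.1 and 12.9 in shCtrl. PolII stood there in all 8 lists, at 3.45 and 13.9 in NextA, 3.34 and 15.2 in Ctrl, 6.89 and 6.87 in shHDAC6 and 6.34 and 7.07 in shCtrl. ATAC values overlapped between NextA and Ctrl and between shHDAC6 and shCtrl.
Others of the strongest 10 lay near SMIM23 and ZBTB20 and inside SGCE, NFATC2, ASB5 and DST. Regions inside SGCE (a sarcoglycan gene) and NFATC2 (a transcription factor of activated lymphocytes) were called in no shHDAC6 list and in all 3 shCtrl lists, at folds of 5.75, 5.08 and 5.43 inside SGCE and of 4.49, 4.55 and 4.26 inside NFATC2. The widest region, 2424 bp inside STON2, was weaker, at 7.38, 6.25 and 6.41 in NextA and 6.94, 4.17 and 5.56 in Ctrl. At the distance limit, regions 5.007 kb from an end of LCP1 and of SELPLG and 5.008 kb from an end of TMEM19 were kept, while those 5.0 kb from NUMB, 4.999 kb from an end of CAB39L and 4.994 kb from an end of FHL2 were not.

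Most of these regions were open in parental cells and not called in hairpin cells. Of the 8594, 4961 (57.7%) had a peak in none of the 6 hairpin lists and 790 (9.19%) in all 6. For HDAC6-carrying regions the counts were 577 of 4867 (11.9%) and 2486 (51.1%), and near gene ends 8.53% and 71.9%. The commonest pattern was a peak in all 6 parental lists and no hairpin list, at 3832 regions (44.6%), against 10.1% of HDAC6-carrying regions. By list, 23.3, 17.9 and 19.5% of regions without HDAC6 had a peak in shHDAC6 and 26.4, 25.8 and 22.7% in shCtrl, whereas the NextA lists held 95.7, 89.9 and 88.2%. Among HDAC6-carrying regions the shares were 72.4, 64.6 and 67.0% in shHDAC6, 75.2, 74.9 and 71.1% in shCtrl and 96.4, 96.1 and 95% in NextA. Lists were shorter in hairpin cells (25878 to 32998 peaks) than in parental ones (42113 to 79666). With lists trimmed to equal length, the mean difference between the sets over the 9 lists outside the rule was −32.4 points, against −33.7 untrimmed. That mean pools NextA and hairpin lists. Shares of regions without HDAC6 at equal length were not compared between NextA and hairpin lists. Carrying a hairpin and other differences between the cultures cannot be told apart. The NextA lists come from the parental line in which the rule required every region to be open, so both sets stand near 100% there.

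**Figure D2:**
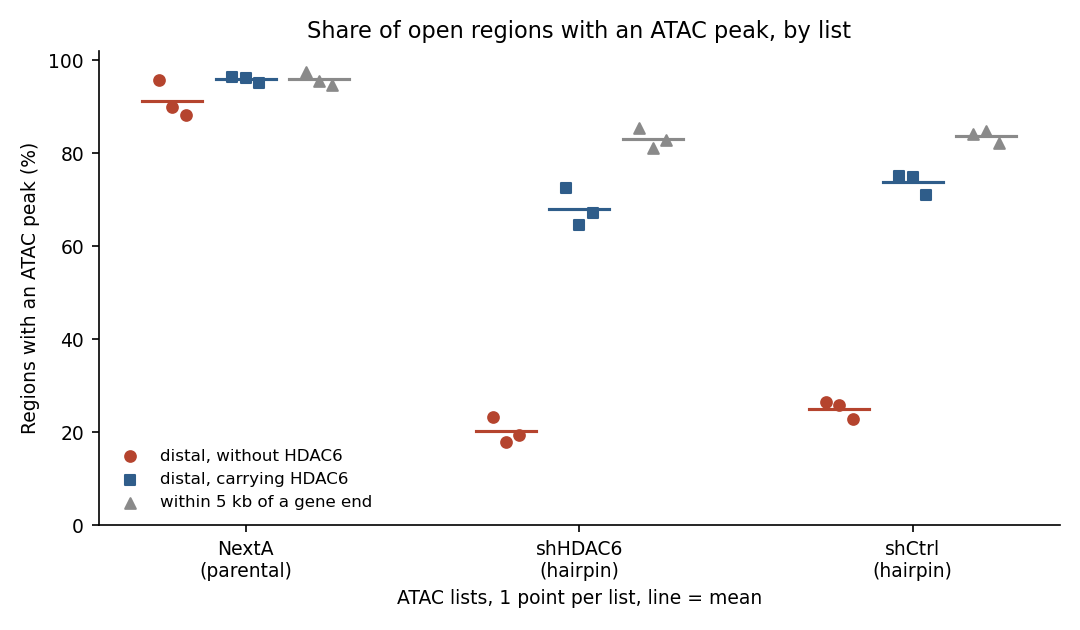
Share of regions with an ATAC peak (y axis, %) in each list of NextA, shHDAC6 and shCtrl cells, 1 point per list with the mean as a line, for 3 sets of open regions. Distal regions without HDAC6 (red) sit at 17.9 to 26.4% in the 6 hairpin lists, below every value of the other sets. Ctrl lists are left out, since the rule sets them at 100%.

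**Figure D3:**
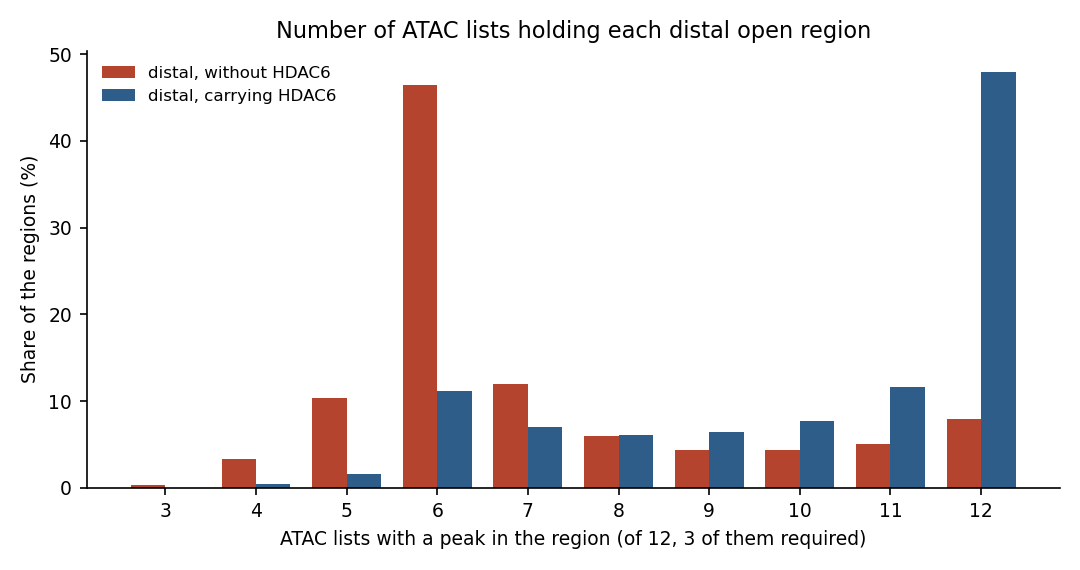
Number of ATAC lists, of 12, that hold each distal open region (x axis) and the share of regions (y axis, %), for regions without HDAC6 (red) and HDAC6-carrying ones (blue). Regions without HDAC6 peak at 6 lists (46.4%) and HDAC6-carrying ones at 12 (48.0%).

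For regions without HDAC6, the share called differed little by strength in shHDAC6 and was highest in the strongest group in shCtrl. When distal regions were split into 4 equal groups by their mean Ctrl percentile, the share of regions without HDAC6 called in shHDAC6 was 20.0, 19.9, 20.5 and 20.7% over these groups in order of strength, weakest first, within the spread of 1.64 to 3.51 points (SD) between lists. In shCtrl it was 23.4, 23.1, 25 and 29.7%, with SDs of 1.39 to 2.49 points. Among HDAC6-carrying regions the share climbed with strength, over 59.7, 64.5, 70.1 and 73.5% in shHDAC6 and over 64.3, 70.7, 75.5 and 79.8% in shCtrl. In the NextA lists both sets climbed, to 99.4% in the strongest group without HDAC6 and 99.8% in the strongest group carrying it.

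**Figure D4:**
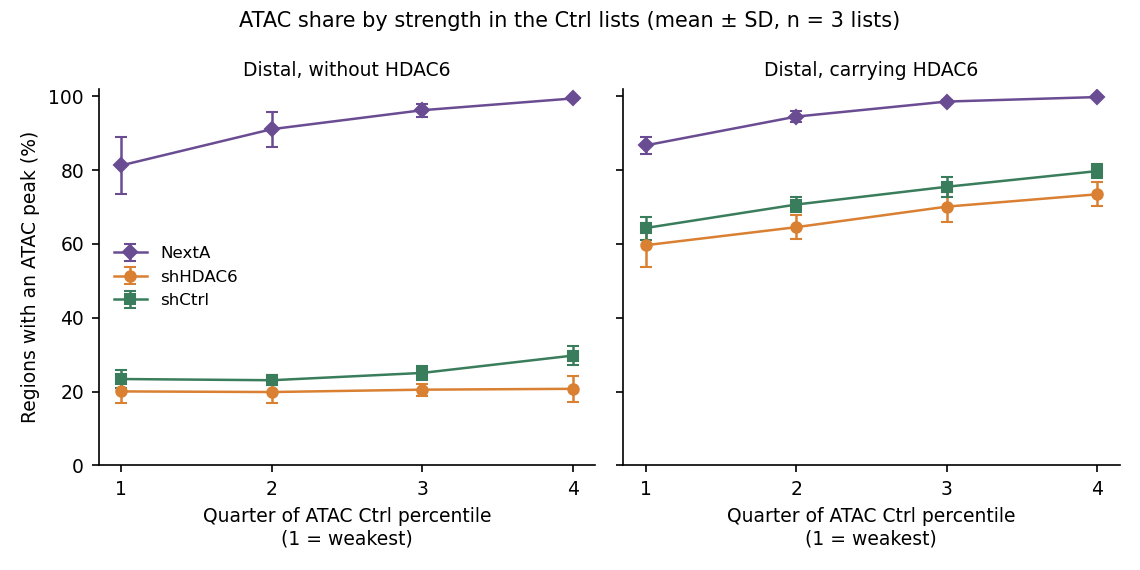
Share of regions with an ATAC peak (y axis, %, mean ± SD over 3 lists) by strength group, 4 equal groups of the mean ATAC Ctrl percentile (x axis, 1 the weakest), for distal regions without HDAC6 (left) and carrying it (right). In hairpin cells the left panel stays between 19.9 and 29.7%.

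The list that supplies the HDAC6 peak moved with the result. Among distal regions with HDAC6 in the first CUT&Tag list alone (796), 30.9% were called in shHDAC6 and 39.5% in shCtrl, as means of 3 lists. With HDAC6 in the second CUT&Tag list alone (673), whose peak names carry the shCtrl-like prefix, the shares were 66.3% in shHDAC6 and 73.4% in shCtrl. With HDAC6 in the CST ChIP list alone (1036) they were 59.1% in shHDAC6 and 65.3% in shCtrl, and with all 3 (1074) 94.5% in shHDAC6 and 96.7% in shCtrl. Regions without HDAC6 stood lowest in both groups, at 20.2% in shHDAC6 and 25% in shCtrl. When the second CUT&Tag list was left out of the rule, 9267 regions lacked HDAC6, of which 54.4% were in no hairpin list, against 11.9% of the 4194 then carrying it, and the shares called were 23.6% in shHDAC6 and 28.5% in shCtrl. Both splits were added after the shares had been seen and carry no test.

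Across the 9 ATAC lists outside the rule, regions without HDAC6 were called less often than HDAC6-carrying ones in 9 of 9, with a mean difference of −33.7 ± 21.9 percentage points (SD over lists; 45.5% against 79.2%; exact paired permutation test over lists, two-sided, p = 0.0039, the smallest that 9 lists allow; Benjamini-Hochberg p = 0.0156 over 4 assays). That difference was −47.8 ± 1.23 points in shHDAC6 lists and −48.7 ± 0.412 points in shCtrl lists (SD, n = 3 each), and the change of 0.97 points between them did not pass (exact permutation p = 0.3; smallest possible 0.1). That change turned to −1.53 with a −log10 q of at least 5 and to −0.92 with lists of equal length. Once all lists share a sign, the paired p depends only on their number and does not measure the size or spread of the difference. The same holds for the paired tests of the other assays below. The 9 lists score the same regions in 1 line, and the labels do not name their samples as separate cultures. They are thus not shown to be independent, and the spread between samples behind the exact permutation p of 0.3 may be technical.

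The next comparison asked whether knockdown of HDAC6 changed accessibility where the HDAC6 lists of the rule had no peak. Regions without HDAC6 had an ATAC peak in 20.2 ± 2.78% of cases in shHDAC6 and 25 ± 1.96% in shCtrl (SD, n = 3 each). The difference of −4.74 points did not pass (exact permutation test, two-sided, p = 0.2), and shHDAC6 list 1, at 23.3%, lay above shCtrl list 3, at 22.7%. HDAC6-carrying regions differed by −5.71 points and regions near gene ends by −0.67 points. At equal list length the difference was −2.74 points and the groups no longer overlapped (exact permutation p = 0.1, the smallest possible).
A region was called lost where all 3 shCtrl lists and no shHDAC6 list had a peak, and gained in the reverse case. Of regions without HDAC6, 59 were lost and 8 gained, which is 0.687% and 0.0931%, beside 0.573% and 0.131% of all 25139 open regions. Of the 1244 open in every shCtrl list, 59 (4.74%) were lost, against 59 of 3006 HDAC6-carrying regions (1.96%) and 144 of all 13212 (1.09%). Of the 996 open in every shHDAC6 list, 8 were gained, against 9 of 2724 HDAC6-carrying regions and 33 of all 12641. Among regions open in every list of a group, both shares were thus higher at regions without HDAC6. As shares of all regions without HDAC6, losses stood above the share over all open regions and gains below it. In shCtrl list 1, ATAC peaks at regions without HDAC6 had a median percentile of 50.01, against 64.4 at HDAC6-carrying regions. In shHDAC6 list 1 it was 50.05 against 66.1. The part of peak strength in these shares was not tested. The counts of lost and gained regions rest on every list. Leaving out shCtrl list 1, 2 or 3 gave 107, 125 and 143 lost and 25, 26 and 18 gained. Leaving out shHDAC6 list 1, 2 or 3 gave 131, 82 and 98 lost and 17, 37 and 33 gained. These counts were not taken over all open regions, so no background stands beside them. The highest-ranked lost region, 103 kb from LSM8 (an RNA-processing protein gene; chr7:118080806-118081591), had no shHDAC6 peak and folds of 5.70, 6.99 and 6.58 in shCtrl. Parental lists held it at 8.22, 8.14 and 10.2 in NextA and 8.69, 7.58 and 5.97 in Ctrl. A region 7.90 kb from CBLB, a ubiquitin ligase gene, had no shHDAC6 peak and folds of 7.47, 6.35 and 5.43 in shCtrl.
Gained regions included one inside STAU2, an RNA-binding protein gene, at 8.74, 4.62 and 6.91 in shHDAC6 and none in shCtrl, and one near LPIN1, a phosphatidate phosphatase gene, at 5.51, 4.37 and 4.21 in shHDAC6 and none in shCtrl.

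Under the inhibitor nearly all of these regions were still called. A NextA peak stood in 91.3 ± 3.94% of regions without HDAC6 (SD, n = 3), against 95.8 ± 0.726% of HDAC6-carrying ones, and in all 3 NextA lists in 6841 (79.6%) against 89.9%. The Ctrl lists chose the regions, so the Ctrl share is 100% by the rule and only loss can be seen. With no NextA peak at all there were 36 regions (0.419%), beside 0.302% of all open regions, from which nothing is read. Their number was 382 without NextA list 1, 78 without list 2 and 69 without list 3, and these counts were not taken over all open regions. The highest-ranked of the 36 lay 13.9 kb from TENT5B, a nucleotidyltransferase gene, with no NextA peak and folds of 6.66, 7.06 and 7.77 in Ctrl. It was still called in 5 of the 6 hairpin lists. A region inside GSE1 had no NextA peak, folds of 4.54, 6.79 and 9.04 in Ctrl, 5.92, 5.56 and 5.94 in shHDAC6 and 6.51, 5.37 and 4.36 in shCtrl. At SCP2, RNF216 and TCF7L2 the regions had neither NextA nor hairpin peaks.

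PolII was scarce at regions without HDAC6. No PolII list had a peak at 5805 of them (67.5%), against 28.9% of HDAC6-carrying regions, and all 8 lists had one at 119 (1.38%) against 27.8%. By list the shares were 22.9 and 7.31% in NextA, 15.8 and 9.63% in Ctrl, 3.83 and 3.8% in shHDAC6 and 4.44 and 4.15% in shCtrl. HDAC6-carrying regions stood at 50.01 and 49.9% in NextA, 44.2 and 54.9% in Ctrl, 41.6 and 41.3% in shHDAC6 and 42.4 and 41.4% in shCtrl. The difference, a mean of −36.7 ± 6.26 points (SD over lists), had the same direction in 8 of 8 lists (exact paired permutation test, p = 0.0078, the smallest that 8 lists allow; Benjamini-Hochberg p = 0.0156).
The ATAC pattern of a region went with its PolII. At regions open in parental lists only, PolII was called at 25.9 and 2.77% in NextA, 17.5 and 3.78% in Ctrl, 0.548 and 0.626% in shHDAC6 and 1.2 and 0.939% in shCtrl. At regions open in all 12 ATAC lists the shares were 14.6 and 22.1% in NextA, 11.1 and 28.1% in Ctrl, 15.1 and 14.9% in shHDAC6 and 14.3 and 13.6% in shCtrl. Parental lists 1, called on q, held more of the first kind, and parental lists 2, called on p, more of the second.

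**Figure D5:**
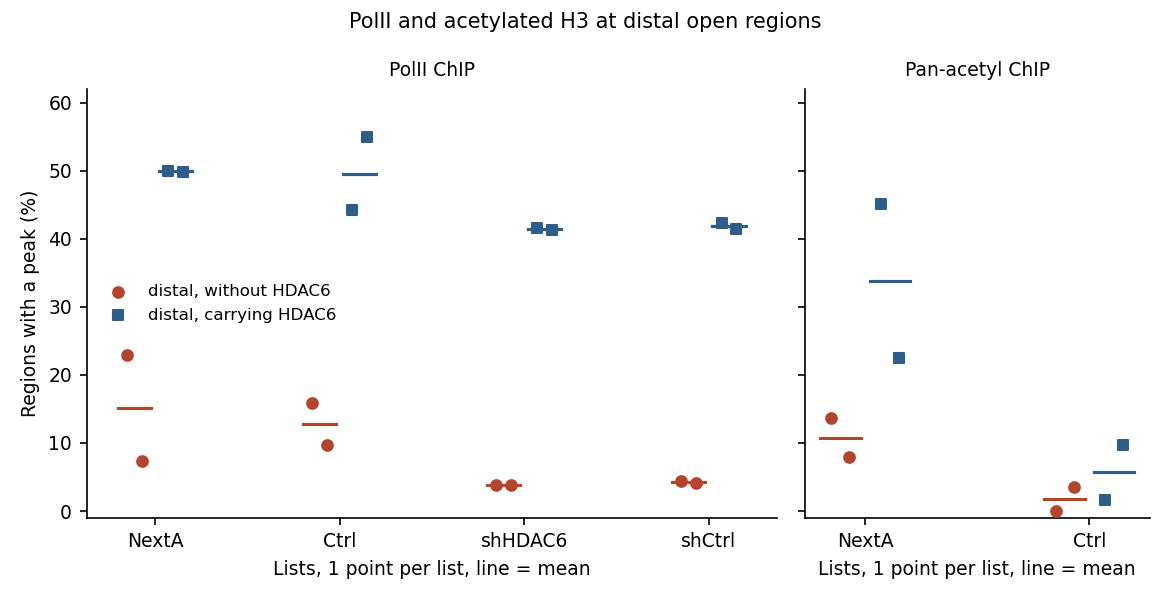
Share of distal open regions with a peak (y axis, %) in each PolII list (left) and pan-acetyl list (right), 1 point per list with the mean as a line, for regions without HDAC6 (red) and carrying it (blue). In the PolII panel regions without HDAC6 lie at 3.8 to 22.9% and HDAC6-carrying ones at 41.3 to 54.9%.

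PolII calls in NextA lay on both sides of those in Ctrl. Regions without HDAC6 had PolII in 15.1 ± 11.1% of cases in NextA and 12.7 ± 4.39% in Ctrl (SD, n = 2 each; exact permutation p = 1.0, smallest possible 0.33). List 1 was higher in NextA and list 2 lower. The difference was 2.39 points, and it turned to −0.48 at equal list length, to −5.43 without NextA list 1 and to −0.72 without Ctrl list 2. It was 10.2 without NextA list 2 and 5.49 without Ctrl list 1. By the same rule of all lists against none, PolII peaks were gained at 27 regions (0.314%) and lost at 11 (0.128%), beside 0.31% and 0.151% of all open regions, so both shares stood near the background. Every list decided these counts. Without NextA list 1, NextA list 2, Ctrl list 1 or Ctrl list 2 in turn, 98, 793, 93 and 89 regions were gained. These were 1.14, 9.23, 1.08 and 1.04%, beside 1.06, 4.98, 1.21 and 2.11% of all open regions. Lost regions numbered 90, 26, 242 and 273, or 1.05, 0.303, 2.82 and 3.18%, beside 1.09, 1.03, 2.61 and 1.84% of all. Gains included regions near METRNL (3.75 and 4.11 in NextA, none in Ctrl), near RUNX1, a transcription factor gene (3.97 and 2.70 in NextA, none in Ctrl), and 174 kb from MYC (3.49 and 3.19 in NextA, none in Ctrl). The region inside PC, the pyruvate carboxylase gene, had no NextA peak and folds of 3.67 and 3.0 in Ctrl.
After knockdown PolII was called at 3.82 ± 0.0165% of regions in shHDAC6 and 4.30 ± 0.206% in shCtrl (SD, n = 2 each). The groups did not overlap, the difference was −0.48 points, and p was 0.33, the smallest possible in this exact test. It reversed to 1.06 points with a −log10 q of at least 5 and shrank to −0.0058 at equal list length. Lost PolII peaks numbered 55 (0.640%) and gained ones 34 (0.396%), beside 0.899% and 0.796% of all open regions. Without shHDAC6 list 1, shHDAC6 list 2, shCtrl list 1 or shCtrl list 2 in turn, 69, 67, 90 and 103 regions were lost. These were 0.803, 0.7796, 1.05 and 1.199%, beside 1.21, 1.17, 1.297 and 1.496% of all open regions. Gained regions numbered 53, 62, 49 and 40 in the same order. These were 0.617, 0.721, 0.5702 and 0.465%, beside 1.16, 1.18, 1.197 and 0.907% of all. Each of these shares stood below that of all open regions. Of the 309 regions with PolII in both shCtrl lists, 55 (17.8%) were lost, against 87 of 1949 HDAC6-carrying regions (4.46%) and 226 of all 11503 (1.96%). Of the regions with PolII in both shHDAC6 lists, 34 of 283 without HDAC6 were gained, against 76 of 1927 carrying it and 200 of all 11461. Among regions with PolII in both lists of a group, losses and gains thus both took a larger share at regions without HDAC6. As shares of all regions without HDAC6, both stood below the shares over all open regions. In shCtrl list 1, PolII peaks at regions without HDAC6 had a median percentile of 36.8, against 58.2 at HDAC6-carrying regions. In shHDAC6 list 1 it was 31.6 against 51.8. The part of peak strength in these shares was not tested. The region 570 kb from DIPK2B had no shHDAC6 peak and folds of 6.43 and 6.87 in shCtrl. Near GRPEL1, a mitochondrial import gene, PolII had no shHDAC6 peak and folds of 5.18 and 5.17 in shCtrl, while ATAC was called in all 6 hairpin lists. PolII was gained inside DDR2, a collagen receptor kinase gene, at 4.51 and 4.81 in shHDAC6 and none in shCtrl.
Regions with PolII in all 8 lists included those near CAPRIN1 and MAP2K3 and inside PRDM11 and PTPA. At PRDM11 the folds were 5.15 and 13.6 in NextA, 7.78 and 14.4 in Ctrl, 10.1 and 10.1 in shHDAC6 and 7.42 and 7.23 in shCtrl.

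Acetylated histone H3 was called in more of these regions in each NextA list than in either Ctrl list, and less often than at HDAC6-carrying regions. Regions without HDAC6 had a pan-acetyl peak in 13.6 and 7.96% of cases in NextA and 0.0349 and 3.58% in Ctrl. The groups did not overlap and the difference was 8.98 points (exact permutation p = 0.33, the smallest possible). List length moves with it, with 28473 and 61186 peaks in NextA and 1418 and 41411 in Ctrl, and at equal length the difference was 0.0407 points. With a −log10 q of at least 5 it was 1.18 points. In HDAC6-carrying regions the shares were 45.1 and 22.5% in NextA and 1.68 and 9.74% in Ctrl, and regions without HDAC6 were lower in 4 of 4 lists, with a mean difference of −13.4 points (exact paired permutation p = 0.13, the smallest possible). It was −7.46 points without NextA list 1, −3.71 with a −log10 q of at least 5 and −1.33 at equal list length. A pan-acetyl peak was gained at 72 regions (0.838%) and lost at none, beside 14.9% and 0% of all open regions. Only 1 region had a peak in both Ctrl lists and could have been lost. Leaving out Ctrl list 1, which held 1418 peaks, gave 218 lost and 72 gained regions. These were 2.54 and 0.838%, beside 1.64 and 16.7% of all open regions. Leaving out NextA list 1 or 2 gave 633 and 1119 gained, or 7.37 and 13.02%, beside 19.5 and 37.6% of all. Without Ctrl list 2, 83 were gained (0.966%, beside 20.7% of all). Gained shares thus stayed below those over all open regions, while the lost share without Ctrl list 1 stood above. The highest gained region lay inside TPM4, a tropomyosin gene (chr19:16078416-16079272), with pan-acetyl folds of 4.98 and 3.13 in NextA and none in Ctrl. It had PolII folds of 4.43 and 9.55 in NextA and 4.2 in Ctrl list 1 alone. The region inside TEX9 had pan-acetyl folds of 4.12 and 2.67 in NextA and none in Ctrl, with PolII in all 8 lists.

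Apart from the Novus Ctrl list, the HDAC6 lists outside the rule held few open regions of either distal set. Among regions without HDAC6 the shares were 0.0582% in the CST NextA list and 0.00% in the Novus NextA list, 0.954 and 1.02% in the shHDAC6 lists and 2.64% in the Novus Ctrl list (exact 95% interval 2.31 to 3.0%). Over all open regions they were 2.71% in the CST NextA list, 0.135% in the Novus NextA list, 1.49 and 1.34% in the shHDAC6 lists and 12.01% in the Novus Ctrl list. HDAC6-carrying regions stood at 2.24, 0.0822, 1.54, 1.31 and 8.42% in the same order of lists, higher than regions without HDAC6 in 5 of 5, and the mean difference was −1.78 points (exact paired permutation p = 0.063, the smallest possible; Benjamini-Hochberg p = 0.0833). It was −0.785 points without the Novus Ctrl list, −0.677 with 50% of the region covered, −0.324 with a −log10 q of at least 5 and −0.067 at equal list length. The Novus Ctrl share was 0.733% when a peak had to cover 50% of the region and 0.0116% at equal list length. With a −log10 q of at least 5 no region was held. An HDAC6 peak of a rule list lay within 1 kb of 286 regions (3.33%).

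Gene groups of the cell type were described by the regions assigned to them by position, and no test was made of them. Over all genes 63.8% of distal open regions lacked HDAC6, and 57.7% of these were in no hairpin list. Among 20 mesenchymal genes, 14 had 31 regions without HDAC6, against 10 carrying it, and 20 of the 31 were in no hairpin list. The region 163 kb from TWIST2, a mesenchymal transcription factor gene, had folds of 12.5, 9.76 and 15.4 in NextA and 13.6, 11.3 and 9.28 in Ctrl, with no hairpin peak. For 14 AP-1 genes there were 13 against 12 regions, with 8 of the 13 in no hairpin list. The one near JUN had folds of 13.5, 8.26 and 6.86 in NextA and 14.9, 5.81 and 10.7 in Ctrl, with no shHDAC6 peak and 4.49 in shCtrl list 2. YAP/TEAD genes, which read cell tension, had 18 against 13, and 7 of the 18 were in no hairpin list. Near CCN1, a matricellular target of YAP, the folds were 14.1, 12.3 and 10.7 in NextA and 15.7, 9.83 and 10.8 in Ctrl, and 1 hairpin list had a peak, shCtrl list 1 at 5.36.
Invasion proteases had 16 against 4 regions, with 12 of the 16 in no hairpin list. The strongest pair of them belonged to ADAM12, a metalloprotease gene, and the one inside it had folds of 16.0, 11.5 and 11.6 in NextA and 13.6, 11.2 and 13.5 in Ctrl, with no hairpin peak. Cytokine and NF-kB genes had 13 against 6, with 12 of the 13 in no hairpin list, such as the region near IL1A at 8.88, 6.79 and 7.56 in NextA and 12.4, 11.4 and 6.94 in Ctrl. Receptor kinase genes had 36 against 19, TGF-beta genes 29 against 14, basal breast genes 13 against 8 and luminal genes 12 against 12. In no hairpin list were 21 of the 36, 20 of the 29, 9 of the 13 and 10 of the 12 without HDAC6. A region 33.1 kb from EGFR, the growth factor receptor gene, had folds of 15.8, 10.4 and 10.3 in NextA and 15.7, 10.8 and 6.67 in Ctrl and no hairpin peak. Deacetylase and acetyltransferase genes had 21 against 9, among them a region inside HDAC9, and 13 of the 21 were in no hairpin list.
Leukocyte genes had 7 against 1 and neuron genes 10 against 5, with 2 of the 7 and 8 of the 10 in no hairpin list. Of the 7 leukocyte-gene regions 2 were called in all 6 hairpin lists, near IKZF1 and 180 kb from PTPRC. The IKZF1 region had folds of 11.2, 11.4 and 11.1 in NextA, 11.0, 10.2 and 10.7 in Ctrl, 9.82, 8.02 and 7.55 in shHDAC6 and 10.5, 8.0 and 7.92 in shCtrl. By position the richest gene was MYC, a growth-control transcription factor gene, with 16 regions without HDAC6 and 4 carrying it. The 16 lay between 127668248 and 128666591 on chromosome 8, and 12 were in no hairpin list. None lay inside MYC, and all were assigned to it as the nearest protein-coding gene. LPP, an adhesion protein gene, followed with 12, all in no hairpin list and none joined by an HDAC6-carrying region.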

How the data were processed

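Of 41 samples, 32 had a peak list analysed here (9 were not analysed here). Reads were handled with MACS2 2.2.7.1, Bowtie2 2.4.4, Trim Galore 0.6.7, ChIPseeker 1.28.2, deepTools 3.5.1 and SAMtools 1.13 on GRCh38/hg38, per the submitters' processing notes; parameters and read depth are not given in the sources used here. Each deposited list holds the authors' fold enrichment, −log10 p and −log10 q and a MACS2 score for every peak, with 1 list per sample. The deposited score equalled 10 times the −log10 p or q, which showed which of these each list was called on.

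Lists were grouped by the sample labels, peaks on chromosomes 1 to 22 and X were kept, and an overlap of 1 bp counted as a peak. Gene ends came from the RefSeq table of 19974 protein-coding genes, and sequences from RefSeq start windows (GRCh38.p14). Folds are used to describe and rank peaks within a list. Groups were compared by exact two-sided permutation over lists (SciPy 1.17.1, pandas 2.3.3, numpy 2.4.6, Python 3.11.15), with Benjamini-Hochberg adjustment over 4 assays, and the code was tested on simulated lists. Alternatives were lists trimmed to equal length, stricter calls (−log10 q of 5 or more), 50% coverage, other distance limits, leaving out each list and the replicate block. Intervals cover counting error only. Named regions are the 10 strongest by mean ATAC Ctrl percentile, the 5 widest, the 5 highest-ranked of each call, the 2 strongest of each of 12 gene lists and the 3 nearest each side of the distance limit. No sequence on chromosome 8 was eligible for printing, and some named regions are not reported here. The regions and lists were chosen with earlier results of these data known.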

Additional observations from a re-analysis of the deposited data

Results flagged for a closer look

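The gap in ATAC calls between distal regions without HDAC6 and those carrying it differed between hairpin and inhibitor-treated cells. It was −48.3 ± 0.977 percentage points in the 6 hairpin lists (3 shHDAC6 and 3 shCtrl) and −4.54 ± 3.38 points in the 3 NextA lists (SD). The difference was −43.7 points (exact permutation test over lists, two-sided, p = 0.0238, the smallest that 6 against 3 lists allow). This comparison was added after the shares had been seen. The p restates shares that prompted the comparison and is no independent support. The rule required every region to be open in untreated parental cells, and in NextA lists of that line the shares stood near 100% (91.3% without HDAC6 and 95.8% carrying it), where a gap has little room. Carrying a hairpin and other differences between the cultures cannot be told apart. With all lists trimmed to the same number of peaks the difference was −38.6 points. Leaving out any of the 3 NextA lists gave p = 0.0714 in the exact test, the smallest that 6 against 2 lists allow.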

How the results depend on the processing

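The differences between the sets kept their direction and an adjusted p of 0.0156 to 0.0313 (exact permutation, Benjamini-Hochberg) under every alternative run, over −41.1 to −31.8 points for ATAC and −56.7 to −32.2 for PolII. The hairpin-against-NextA gap aside, the other tests have too few lists to pass the threshold. With a −log10 q of at least 5 the PolII difference between shHDAC6 and shCtrl reversed to 1.06 points, the contrast of ATAC change between the sets reversed to −1.53, ATAC losses in shHDAC6 numbered 36, regions without a NextA peak 15, and the Novus Ctrl share was 0%. At equal list length the PolII difference between NextA and Ctrl reversed to −0.483 points, the contrast of ATAC change to −0.920, gains in shHDAC6 numbered 18, regions without a NextA peak 83, and the Novus Ctrl share was 0.0116%. With 50% of a region covered, 411 regions had no NextA peak and the Novus Ctrl share was 0.733%. ATAC counts under the alternatives and without 1 list were taken at regions without HDAC6 only. Leaving out 1 list at a time gave 69 to 382 regions without a NextA peak, 82 to 143 losses and 17 to 37 gains in shHDAC6, a PolII difference between NextA and Ctrl of −5.43 to 10.2 points, and a hairpin-against-NextA gap of −44.8 to −41.8 points, whose p was 0.0714 without any of the NextA lists. Pairing by number was checked on the departures of each list from its group mean, so these correlations do not tell how alike whole lists are. Same-numbered ATAC lists of shHDAC6 and shCtrl correlated at 0.0125, −0.0308 and −0.0101, PolII lists of these groups at −0.000179 and pan-acetyl lists of NextA and Ctrl at 0.00301. Same-numbered PolII lists of NextA and Ctrl, which share the measure used for calling, correlated at 0.540, and other-numbered ones at −0.540. With 2 lists a group both pairs give the same value by construction, too little to show pairing by the criterion used. With the replicate block the exact permutation test gave the ATAC difference of −4.74 points p = 0.25, the PolII difference of 2.39 points p = 1 and the pan-acetyl difference of 8.98 points p = 0.5, which changed no call. Membership ran over 6626 to 9630 under other rules and over 9267 to 12146 without 1 list. Depth is not given, so a missing peak is not an absence of signal, and with 2 lists a group no exact p can fall under 0.33.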
